A study of Mus musculus with 66 samples.

Results

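The kinesin and dynein motor genes are the 80 of 30084 gene symbols in the deposited count table that begin with Kif followed by a digit or c, are Klc1 to Klc4, begin with Dync1, Dync2 or Dynl, or are Dctn1 to Dctn6. They were chosen by symbol alone. By symbol they were divided into 15 transport kinesins, 4 kinesin light chains, 14 mitotic kinesins, 18 other kinesins, 5 subunits of cytoplasmic dynein 1, 4 subunits of dynein 2, 14 dynein light chains and 6 dynactin subunits. Of the 80, 69 had enough reads to be tested, and the 11 others (Dynlt2a1, Dynlt2a2, Dynlt4, Dynlt5, Kif2b, Kif12, Kif16bos, Kif19b, Kif22-ps, Kif4-ps and Kifc5c-ps) reached at most 12 reads in any library.

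Kinesins and cytoplasmic dynein are motors that walk along microtubules and spend ATP to carry loads. In an axon most transport kinesins carry vesicles, mitochondria and RNA away from the cell body, and dynein 1, which needs the dynactin complex, carries loads back towards it. Mitotic kinesins build and move the spindle of dividing cells, and dynein 2 carries loads inside cilia.

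The libraries were RNA-seq of neurons cultured from wildtype (WT) mouse embryos (E16.5), with male and female embryos kept apart. Lentivirus brought in shRNA, a hairpin that reduces its matching transcript, against Chd8, Med13l, Ash1l, Setd5, Dnmt3a, Tbr1, Kdm6b, Mbd5 or Kmt2c or a control shRNA labelled Nontargetting, and some cultures had no virus. These 11 treatments in 2 sexes gave 22 groups of 3 libraries, 66 in all, and the control, the no virus and all knockdown cultures shared genotype, age and medium. The virus was removed on day 6, lysis followed on day 10, and doses aimed at about 50% of each target's level. Because several genes coding for regulators of chromatin and transcription were lowered in the same kind of culture, the design asks which genes respond to each.

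Library totals ranged from 13759741 to 66558546 counts. By the fit, each targeted gene stood at 22.9% to 45.2% of control. However, only 5 of 6 libraries labelled Setd5 and 4 of 6 labelled Kdm6b lay below every nontargeting library in their target. The library labelled Setd5 male replicate 1 held 141 CPM (counts scaled to the size of the library) of Setd5, within the control range of 97.3 to 155 CPM, and 23.1 CPM of Kdm6b. The library labelled Kdm6b male replicate 1 held 39.9 CPM of Kdm6b, within the control range of 31.0 to 64.9 CPM, and 44.9 CPM of Setd5. Each thus had the other's target below every control library, and the members, partners and counts called with them are given without both as well. Kdm6b female replicate 3, at 36.2 CPM of Kdm6b, also lay within the control range and was kept there. Kdm6b was below every control in some other libraries too, as in Setd5 female replicate 1 (24.4 CPM) and Ash1l female replicates 1 and 3 (19.7 and 26 CPM). Female replicate 1 libraries varied most in how counts depended on transcript length, with slopes from -0.246 to 0.043 log2 units per doubling of exon length, against -0.095 to 0.102 in the other libraries. Neuron markers were abundant in the nontargeting libraries, at 5237 to 5858 CPM summed over 7 genes, whereas 12 markers of dividing cells summed to 20.6 to 28.5 CPM and 6 microglial markers to 0.945 to 2.40 CPM.

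In nontargeting libraries the 80 genes summed to 12733 CPM on average, of which the 15 transport kinesins took 7115 CPM and the 14 mitotic kinesins 27.3 CPM, a share of reads that also depends on transcript length. Levels of different genes were compared only per kilobase of exon. Kif1a, which carries synaptic vesicle precursors, was the highest, at 234 CPM per kb (181 to 272 over 6 libraries). Next came Klc1, the main light chain that couples kinesin-1 to its loads, at 211 CPM per kb (199 to 233). Then followed Dynlrb1, a light chain of dynein, at 184 (140 to 232), the kinesin-1 heavy chain Kif5c at 169 (141 to 197) and the dynein light chain Dynll2 at 161 CPM per kb (132 to 189). Each of these 5 overlapped its neighbours in the order. Kif5a, the neuronal kinesin-1 heavy chain, stood at 134 CPM per kb (122 to 147), and Kif5b, the ubiquitous one, at 22.6 (21.0 to 24.1), with no overlap between them. Dync1h1, the heavy chain of dynein 1, stood at 68.4 CPM per kb (41.2 to 95.7). Mitotic kinesins lay between 0.0331 CPM per kb for Kif14 and 0.755 for Kif18a, all below the median transport kinesin (Kif21b, at 38.1).

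**Figure D1:**
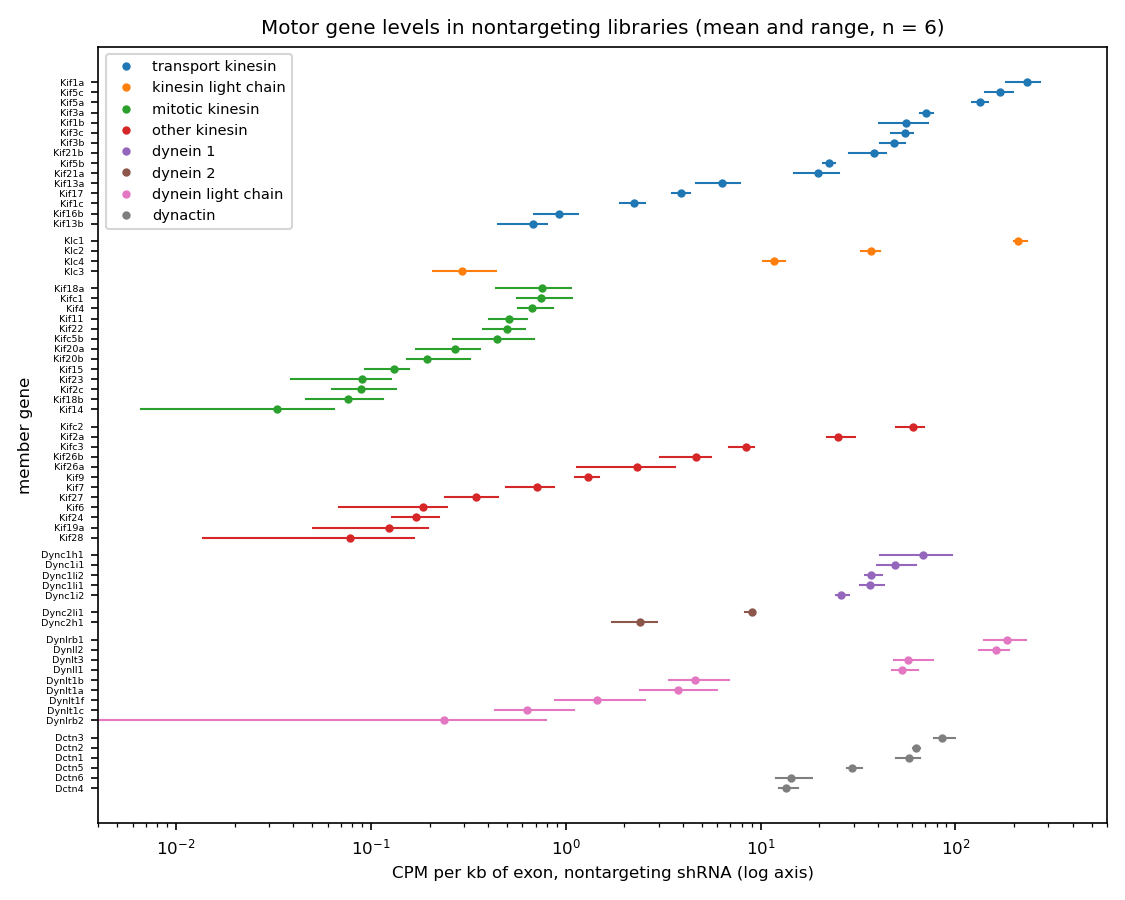
Level of each tested member with a known exon length in the 6 nontargeting libraries, as CPM per kb of exon on a log axis, with points for means, lines for the range and colours for class. Kif1a is the highest at 234 CPM per kb and every mitotic kinesin lies below 1, while the line of Dynlrb2 runs off the left edge because its lowest library is at 0.

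Each knockdown was compared with the nontargeting libraries as the mean of the male and the female difference. A gene is called here when the adjusted p (edgeR quasi-likelihood test, Benjamini-Hochberg over 16145 genes) was under 0.05. Chd8 shRNA gave 18 called members of 69, 14 higher and 4 lower, against 22.3% of all genes called (9.85% higher and 12.5% lower). Med13l shRNA gave 13, 6 higher and 7 lower, against 24.1% of all genes. Ash1l shRNA gave 5, all lower, against 6.16% of all genes (2.67% higher and 3.49% lower). Setd5 libraries gave 4, 2 in each direction, against 5.3% (1.83% higher and 3.46% lower). Dnmt3a shRNA gave 3, all higher, against 1.4% (0.477% higher and 0.923% lower). Kdm6b libraries gave 2, both higher, against 0.966% (0.359% higher). Kmt2c, Mbd5 and Tbr1 shRNA gave 1 each, all lower, against 0.694%, 0.663% and 1.33% of all genes (0.595%, 0.564% and 1.08% lower). Without the replicate block, the shares of members were near the background for Chd8, Med13l, Ash1l and Setd5 and rested on 1 to 3 genes for the other targets, so what follows describes which motors moved and not a response of the family. The median log2 difference of the 69 was 0.11 after Chd8 shRNA, against -0.0026 over all genes, and -0.08 after Med13l shRNA, against -0.01. All 9 comparisons share the same 6 nontargeting libraries.

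In total 33 members were called at least once, 22 of them in a single knockdown, 8 in 2, 2 in 3 and 1 (Dync1li2) in 4. Of the 48 calls, 27 were higher and 21 lower. Kif3a, Kif3b and Dctn5 were called in both directions in different knockdowns. Leaving out each of the 12 libraries of a comparison in turn, 25 of the 48 calls held every time, 8 were lost in 1 to 3 fits and 15 in 4 or more. Same-numbered libraries varied together after Chd8, Dnmt3a, Kmt2c, Mbd5, Setd5 and Tbr1 shRNA. With replicate number as a block, the members called rose from 18 to 27 for Chd8, from 3 to 6 for Dnmt3a, from 1 to 2 for Mbd5, from 4 to 15 for Setd5 and from 1 to 7 for Tbr1. The shares of members were then 39.1%, 8.7%, 2.9%, 21.7% and 10.1%, beside 36.9%, 6.97%, 3.32%, 16.2% and 6.57% of all genes. For Kmt2c it stayed at 1, and every call named here was kept in the blocked fit.

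**Figure D2:**
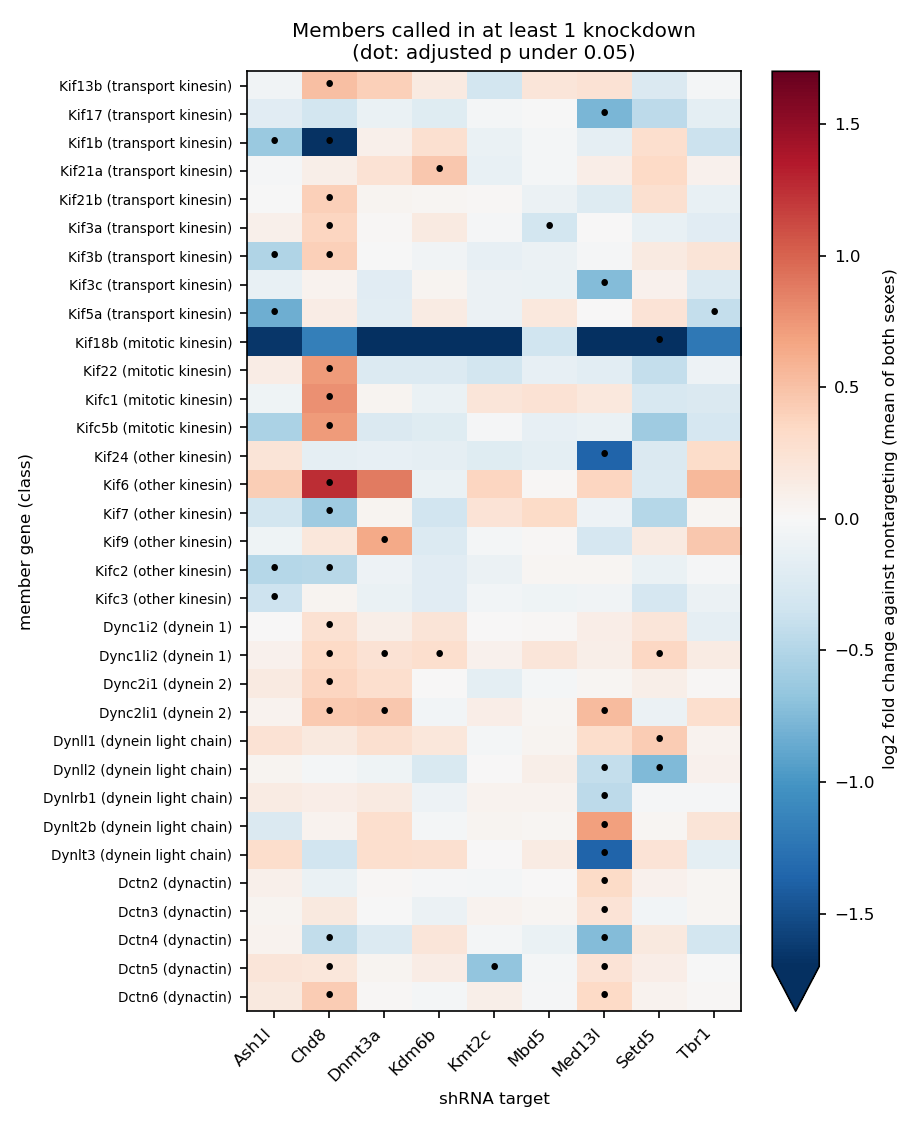
Log2 difference from nontargeting (mean of both sexes) of the 33 members called in at least 1 knockdown, as colour, with a dot where the adjusted p was under 0.05; rows are genes with their class and columns are shRNA targets. Dots crowd the Chd8 column (18) and the Med13l column (13), and the dark row of Kif18b rests on at most 12 reads per library.

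Among the transport kinesins, Kif1b was the member with the smallest adjusted p in any knockdown. It codes for a kinesin-3 motor whose splice forms carry mitochondria or synaptic vesicle precursors, and lies on the minus strand at chr4:149176319-149307693 (GRCm38). Its CPM was 716 to 1269 (median 978) in nontargeting libraries and 736 to 1200 (median 956) with no virus. It was 230 to 407 (median 308) after Chd8 shRNA. Thus every Chd8 library lay below every control library, in both sexes. The log2 difference was -1.67 (SE 0.17, adjusted p = 4.83e-11), or 31.3% of control, with -1.72 in males and -1.63 in females. After Ash1l shRNA Kif1b was 388 to 905 CPM (median 604), which overlapped the controls in females and not in males. There it fell by 0.63 on the log2 scale (SE 0.17, adjusted p = 0.0114). That call was lost without nontargeting female replicate 2 (adjusted p = 0.073) or Ash1l female replicate 1 (0.0722), the latter being the lowest Ash1l library. After Med13l shRNA Kif1b differed by -0.15 (95% interval -0.47 to 0.17, adjusted p = 0.554). Neuron markers moved beside these: the 7 summed to 4642 to 5292 CPM after Chd8 shRNA, with 1 called higher and 3 lower, and to 4289 to 4820 CPM after Med13l shRNA, with 1 higher and 1 lower. The 6 interneuron markers summed to 1190 to 1683 CPM after Chd8 shRNA, below all nontargeting libraries (1689 to 2084), and to 1036 to 1831 after Med13l shRNA, with 2 of 6 called lower in each. The part of these markers in the motor gene differences was not tested. Over all genes the Med13l difference fell by 0.0712 on the log2 scale per doubling of exon length, against slopes of -0.0309 to 0.0294 for the other targets, and this too was not tested as a part of the Med13l results.

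The 250 bases before a RefSeq start of Kif1b (GRCm38.p6, chr4:149307734-149307983, minus strand) are printed because this motor fell most after Chd8 shRNA. They are written 5′ to 3′ along the gene, with CCAAT boxes, the motif CCAAT or its reverse complement ATTGG, in capitals.
Kif1b: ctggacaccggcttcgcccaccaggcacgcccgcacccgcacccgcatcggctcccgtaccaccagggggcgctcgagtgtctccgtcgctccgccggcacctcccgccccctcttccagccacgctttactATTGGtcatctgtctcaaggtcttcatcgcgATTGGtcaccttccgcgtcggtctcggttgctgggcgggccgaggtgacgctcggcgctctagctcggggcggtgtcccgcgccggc
The window holds 2 CCAAT boxes. On either strand, CCAAT was found in 37.5% of the 27025 genes with such a window and in 3 of 11 transport kinesins. A match is a description of the letters only.

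The kinesin-1 heavy chains did not move together. Kif5a (chr10:127225696-127263348, minus strand, GRCm38), which among other loads carries neurofilaments along axons, was 853 to 1029 CPM (median 922) in nontargeting libraries and 378 to 679 (median 506) after Ash1l shRNA. No Ash1l library reached the control range in either sex. The difference was -0.83 (SE 0.10, adjusted p = 1.68e-08), or 56.4% of control. After Tbr1 shRNA, which targets a transcription factor of deep-layer cortical neurons, Kif5a was 617 to 793 CPM (median 715), again without overlap. The 7 neuron markers summed to 4701 to 5178 CPM there, below all nontargeting libraries (5237 to 5858), with none called by edgeR and 2 at an unadjusted p under 0.05, and their part was not tested. Kif5a fell by 0.41 (SE 0.10, adjusted p = 0.0159), a call that was lost without nontargeting male replicate 3 (adjusted p = 0.0609), nontargeting female replicate 2 (0.084), Tbr1 male replicate 2 (0.091) or Tbr1 female replicate 1 (0.0911). In the Setd5 libraries Kif5a differed by 0.23 with adjusted p = 0.177, and by 0.23 with adjusted p = 0.0152 in the blocked fit (0.22, adjusted p = 0.229, without both libraries that went against their labels). Kif5b stayed between -0.08 and 0.12 over the 9 comparisons, with no adjusted p under 0.464. Kif5c ranged from -0.22 to 0.25 (smallest adjusted p = 0.0946). After Ash1l shRNA the 95% interval was -0.20 to 0.20 for Kif5b and -0.03 to 0.35 for Kif5c.

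Other cell markers moved in the Ash1l libraries too. The 6 markers of GABAergic interneurons summed to 824 to 1200 CPM there, against 1689 to 2084 in nontargeting libraries, with 3 of 6 called lower (Gad1, Gad2 and Slc32a1, Gad1 by -1.28). The sums of the 7 neuron markers overlapped, at 5279 to 6330 against 5237 to 5858 CPM, and none of these 7 was called by edgeR (1 at unadjusted p under 0.05). In bulk libraries fewer cells of a type and less RNA per cell cannot be told apart, and the part of the interneuron markers in the Kif5a difference was not tested.

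The kinesin-2 genes split by knockdown. Kif3a and Kif3b code for the motor pair of kinesin-2, which carries vesicles in axons and builds cilia, and Kif3c for a neuronal relative that also pairs with Kif3a. Kif3b was 231 to 312 CPM (median 272) in nontargeting libraries and 321 to 398 (median 370) after Chd8 shRNA, without overlap. It rose by 0.41 (SE 0.11, adjusted p = 0.00501). Kif3b was 160 to 232 CPM (median 185) after Ash1l shRNA, where only the highest Ash1l library reached the lowest control. There it fell by 0.51 (SE 0.11, adjusted p = 0.00198). Kif3a rose after Chd8 shRNA, from 236 to 276 CPM (median 252) to 305 to 339 (median 328), by 0.36 (SE 0.08, adjusted p = 0.000605). It was 186 to 219 CPM (median 207) after Mbd5 shRNA, below every control library, with a difference of -0.32 (SE 0.08, adjusted p = 0.0449). This last call held in 2 of 12 fits that left out a library. Adjusted p ran up to 0.194 where it was lost, which was without nontargeting male replicate 1, 2 or 3, nontargeting female replicate 2 or 3, Mbd5 male replicate 1, 2 or 3, or Mbd5 female replicate 1 or 3.

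Kif3c moved in another knockdown. This gene (chr12:3365132-3406494, plus strand, GRCm38) was 348 to 448 CPM (median 409) in nontargeting libraries and 171 to 311 (median 247) after Med13l shRNA, with no overlap in either sex. It fell by 0.73 (SE 0.11, adjusted p = 1.92e-06), or to 60.3% of control, while Kif3a differed by 0.01 (95% interval -0.15 to 0.17) and Kif3b by -0.02 (-0.24 to 0.20) in the same libraries. Kif17, the kinesin-2 that carries NMDA receptor subunits into dendrites, was 16.1 to 19.9 CPM (median 17.9) in controls and 8.24 to 13.1 (median 10.2) after Med13l shRNA. It fell there by 0.78 (SE 0.18, adjusted p = 0.000844).

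The remaining called transport kinesins rose. Kif21b, which pauses microtubule growth, rose after Chd8 shRNA from 348 to 537 CPM (median 473) to 545 to 829 (median 573), by 0.40 (SE 0.14, adjusted p = 0.0394). This call held in 4 of 12 leave-one-out fits. Kif13b rose by 0.51 (SE 0.14, adjusted p = 0.00478) after Chd8 shRNA from 8.80 to 12.5 mean CPM, and was not called without the female replicate 1 libraries (0.35, adjusted p = 0.0838). Kif21a, a close relative of Kif21b, rose in the libraries labelled Kdm6b from 95.6 to 164 CPM (median 128) to 152 to 191 (median 179), by 0.45 (SE 0.11, adjusted p = 0.0317), with overlap. No member was called for Kdm6b by edgeR (7 to 10 at an unadjusted p under 0.05) without any 1 of nontargeting male replicate 2 or 3, nontargeting female replicate 1 or 3, or Kdm6b male replicate 1 or female replicate 1. Without both libraries that went against their labels Kif21a was called (0.44, adjusted p = 0.0441). Kif1a ranged from -0.32 (Med13l, adjusted p = 0.0908) to 0.09 over the 9 comparisons and was not called in any, though it was called after Chd8 shRNA in the blocked fit (-0.24, adjusted p = 0.0395).

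None of the 4 kinesin light chains was called by edgeR in any of the 9 knockdowns. Over these 36 tests 3 had an unadjusted p under 0.05, and DESeq2 called 1, Klc1 in the Setd5 libraries (0.18, adjusted p = 0.0353). Klc1 ranged from -0.17 to 0.17 with a smallest adjusted p of 0.113 by edgeR, and the blocked fit gave 0.17 (adjusted p = 0.0363) in the Setd5 libraries, against 0.19 (adjusted p = 0.0855) without the block and without both libraries that went against their labels. Klc3, at 0.551 to 1.17 CPM in controls, had the widest range of the 4, from -0.66 to 0.49.

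**Figure D3:**
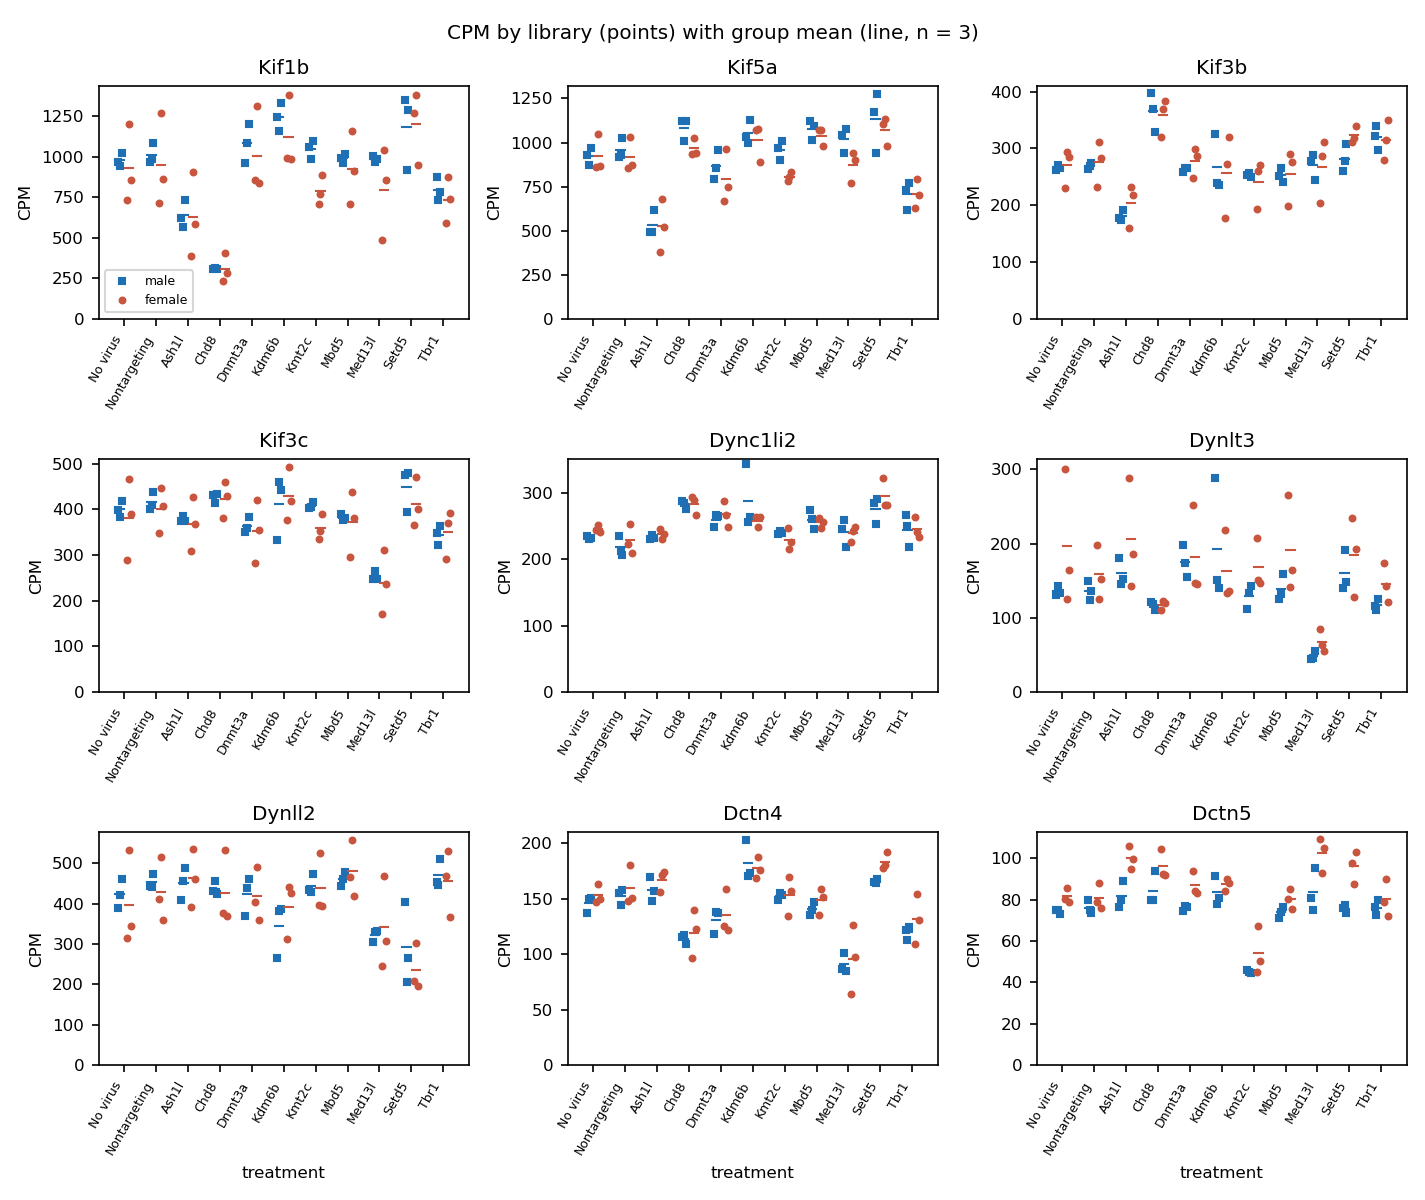
CPM of 9 motor genes in each of the 66 libraries by treatment, with squares for males, circles for females and short lines for group means (n = 3). Kif1b is lowest after Chd8 shRNA (230 to 407 CPM), Kif5a after Ash1l shRNA (378 to 679), Dynlt3 and Kif3c after Med13l shRNA, and Dctn5 after Kmt2c shRNA (44.5 to 67.1).

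Mitotic kinesins were scarce but detected, and after Chd8 shRNA 3 of 13 tested rose and none was called lower, which is 23.1% called beside 22.3% of all genes (9.85% higher). The median difference of the 13 was 0.53, with 10 of 13 positive, beside -0.0026 over all genes. Kif22, which pushes chromosome arms during spindle assembly, was 1.84 to 3.04 CPM (median 2.35) in nontargeting libraries and 2.47 to 5.21 (median 4.12) after Chd8 shRNA. The ranges overlapped in males and not in females. It rose by 0.72 (SE 0.18, adjusted p = 0.0027), on 68 to 125 reads per nontargeting library. Kifc1, a minus-end motor that focuses spindle poles, rose from 1.93 to 3.68 CPM (median 2.41) to 3.50 to 5.30 (median 4.33), above the controls in males and with overlap in females, by 0.78 (SE 0.21, adjusted p = 0.00458). Kifc5b rose by 0.73 (SE 0.22, adjusted p = 0.0109). Its sequence is close to that of Kifc1, so reads may have been split between them and the pair may be a single signal. Without nontargeting female replicate 2 the Kifc5b call was lost (0.60, adjusted p = 0.0515).

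Some mitotic kinesins not called in this comparison had differences of like size. Kif20a, a motor of cytokinesis, differed by 0.62 (adjusted p = 0.0921) and Kif4, a chromokinesin, by 0.53 (adjusted p = 0.0789). In the blocked fit both were called, at 0.59 (adjusted p = 0.0377) and 0.55 (adjusted p = 0.0217). Kif11, the motor that pushes spindle poles apart, differed by 0.33 (95% interval -0.06 to 0.72). Summed over the class, mitotic kinesins were 25.2 to 29.95 CPM (median 27.12) in nontargeting libraries. They were 29.4 to 37.6 CPM (median 36.77) after Chd8 shRNA, with overlap. Markers of dividing cells also had a higher median sum. Of 12 markers 1 was called higher (Tpx2, 0.89) and none lower. Their sums were 20.6 to 28.5 CPM (median 23.07) in controls and 25.9 to 27.3 (median 26.96) after Chd8 shRNA. Every Chd8 library lay above every control library in this sum, except nontargeting male replicate 2 (28.5 CPM). Whether the number of dividing cells has a part in these differences was not tested.

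After Med13l shRNA 6 of the 12 dividing-cell markers were called lower (Mki67, Top2a, Cdk1, Ccnb1, Cenpe and Cenpf), where 12.3% of all genes were. The marker sums of 14.6 to 17.0 CPM all lay below the controls. Of these markers Cenpe is itself a mitotic kinesin, left out of that class because its symbol lies outside the rule. None of the 13 tested kinesins in the class was called there by edgeR (2 at an unadjusted p under 0.05, and 0 by DESeq2). The class summed to 21.7 to 33.4 CPM (median 23.8, against 27.1 in nontargeting libraries), which overlapped the controls. Kif14, which acts in cytokinesis, differed by -1.27 (SE 0.54, adjusted p = 0.0805) at 0 to 11 reads per Med13l library.

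In the Setd5 libraries Kif18b, a kinesin that shortens spindle microtubules, was called lower (adjusted p = 0.0325) on very few reads. Nontargeting libraries held 12, 9, 6, 10, 10 and 8 reads and the Setd5 libraries 2, 0, 0, 0, 1 and 0. No virus libraries, however, held 2, 12, 0, 0, 6 and 4, and against these the adjusted p was 0.246. The call held in 5 of 12 leave-one-out fits, and DESeq2 gave no adjusted p for it. With all counts halved, 3 members were called in the Setd5 libraries, 1 of them lower, against 2 lower in the main fit. Without both libraries that went against their labels Kif18b had an adjusted p of 0.0196. Kif15 and Kif20b were then also called lower (adjusted p = 0.0264 and 0.0327). Of the 12 dividing-cell markers, Top2a and Ccnb1 were called lower in the same libraries. The 12 summed to 18.2 to 26.8 CPM over all Setd5 libraries, which overlapped the nontargeting libraries (20.6 to 28.5).

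**Figure D4:**
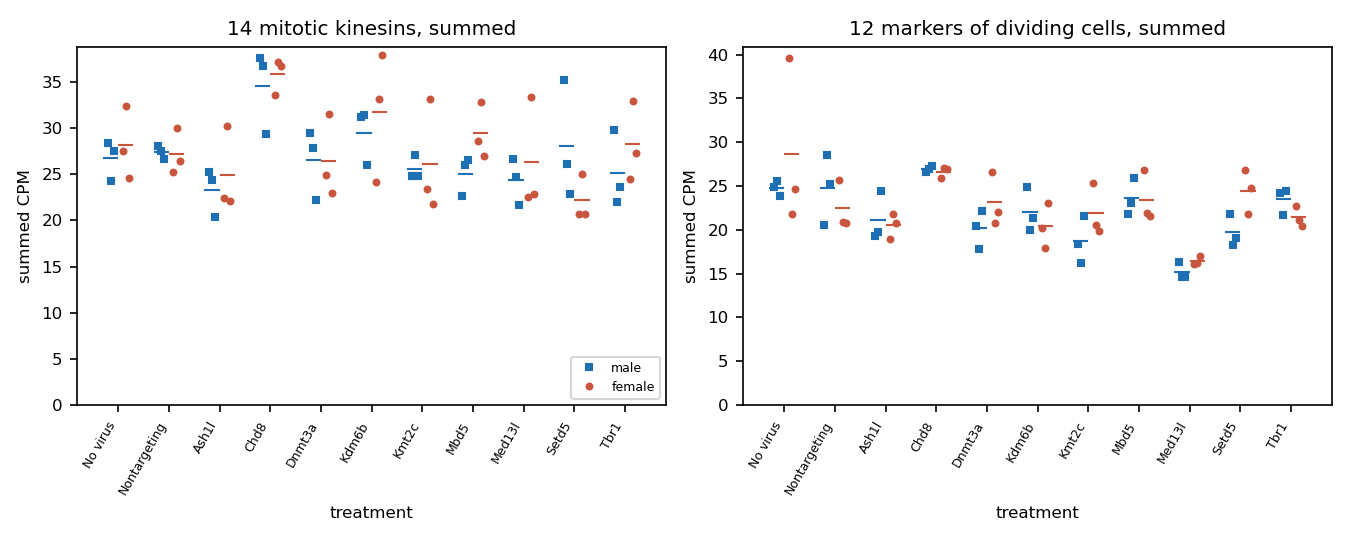
Summed CPM of the 14 mitotic kinesins (left) and of 12 markers of dividing cells (right) in each library by treatment, with squares for males, circles for females and lines for means (n = 3). The 12 markers include Cenpe, a mitotic kinesin outside the symbol rule. After Chd8 shRNA the kinesins reach 29.4 to 37.6 CPM and the markers 25.9 to 27.3, both overlapping the controls. After Med13l shRNA the markers drop to 14.6 to 17.0 while the kinesins overlap the controls.

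Promoters of the 2 mitotic kinesins that rose with the smallest adjusted p after Chd8 shRNA are printed because genes of the cell cycle often carry CCAAT boxes and the cell cycle homology region (CHR), searched here as TTTGAA on both strands. These are the 250 bases before the RefSeq start (GRCm38.p6), 5′ to 3′ along the gene, for Kif22 at chr7:127042421-127042670 and Kifc1 at chr17:33890634-33890883, both on the minus strand. Capitals mark CCAAT or ATTGG and TTTGAA or TTCAAA.
Kif22: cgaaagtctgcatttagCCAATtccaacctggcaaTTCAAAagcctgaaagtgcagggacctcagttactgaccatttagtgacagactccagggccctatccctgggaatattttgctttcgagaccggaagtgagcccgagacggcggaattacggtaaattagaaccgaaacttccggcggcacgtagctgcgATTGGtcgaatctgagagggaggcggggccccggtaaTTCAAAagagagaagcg
Kifc1: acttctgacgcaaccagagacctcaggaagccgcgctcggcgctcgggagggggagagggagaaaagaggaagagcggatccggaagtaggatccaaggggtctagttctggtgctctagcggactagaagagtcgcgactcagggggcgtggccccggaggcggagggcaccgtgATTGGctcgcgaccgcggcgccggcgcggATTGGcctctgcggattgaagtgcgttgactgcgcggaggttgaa
Kif22 holds 2 CCAAT boxes and 2 CHR matches, and Kifc1 holds 2 CCAAT boxes. CCAAT was found in 9 of 13 mitotic kinesins with a window (69.2%), in 3 of 11 transport kinesins (27.3%) and in 37.5% of all genes. TTTGAA was found in 5 of 13 mitotic kinesins (38.5%), in 1 of 11 transport kinesins and in 18.3% of all genes. No match overlapped another in the printed windows, and of the 80 members 52 had a window.

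Among the other kinesins, Kifc2, a neuronal minus-end kinesin of dendrites, fell in 2 knockdowns. It was 194 to 271 CPM (median 242) in nontargeting libraries, 160 to 186 (median 166) after Ash1l shRNA and 148 to 191 (median 176) after Chd8 shRNA. Neither set of libraries overlapped the controls. It fell by 0.49 (SE 0.10, adjusted p = 0.00116) and by 0.48 (SE 0.10, adjusted p = 0.000427). Kifc3, at 44.5 mean CPM in nontargeting libraries, was called lower after Ash1l shRNA (-0.35, adjusted p = 0.0432). That call held in 3 of 12 leave-one-out fits. The other called members of this class were scarce. Kif6 rose after Chd8 shRNA from 0.412 to 1.48 CPM to 1.47 to 4.27, by 1.26 (SE 0.38, adjusted p = 0.0109), a call lost without Chd8 male replicate 3, the highest library (0.94, adjusted p = 0.0835). Kif7, a regulator of Hedgehog signalling at the tip of cilia, fell after Chd8 shRNA by 0.61 (SE 0.18, adjusted p = 0.0113), and differed by -0.36 (adjusted p = 0.158) against the no virus libraries. Kif9, found in motile cilia, rose after Dnmt3a shRNA from 4.81 to 6.35 CPM (median 5.73) to 6.77 to 12.8 (median 8.41), without overlap, by 0.65 (SE 0.15, adjusted p = 0.0146). The 5 ependymal markers, of cells with motile cilia, summed to 33.99 to 58.6 CPM there against 29.7 to 38.1 in nontargeting libraries, with none called by edgeR (2 at an unadjusted p under 0.05), and their part was not tested. That call was lost without Dnmt3a female replicate 1 (0.52, adjusted p = 0.154), Dnmt3a male replicate 1 (0.0598), nontargeting male replicate 3 (0.0544) or nontargeting female replicate 2 (0.0671). Kif24, which acts on the centriole from which a cilium grows, was 1.02 to 1.80 CPM in nontargeting libraries and 0.196 to 1.02 after Med13l shRNA. It fell by 1.36 (SE 0.30, adjusted p = 0.000468), on 6 to 29 reads per Med13l library. Kif2a, a microtubule-depolymerising kinesin that prunes axon branches, ranged only from -0.20 to 0.21 (smallest adjusted p = 0.291).

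For dynein 1, Dync1li2 was the gene called most often of all members. It codes for a light intermediate chain, the part that binds cargo adaptors. In nontargeting libraries it was 207 to 253 CPM (median 218). It was 267 to 295 (median 287) after Chd8 shRNA and 254 to 322 (median 283) in the Setd5 libraries, both without overlap. It rose by 0.34 (SE 0.07, adjusted p = 6.98e-05) and by 0.35 (SE 0.07, adjusted p = 0.00035), the latter 0.34 (adjusted p = 0.000156) without both libraries that went against their labels. It was 249 to 288 CPM after Dnmt3a shRNA and 248 to 344 in the Kdm6b libraries, both overlapping the highest control. There it rose by 0.24 (adjusted p = 0.0435) and 0.29 (adjusted p = 0.0148). The highest Kdm6b value was that of the library labelled male replicate 1, and without both libraries that went against their labels the difference was 0.21 (adjusted p = 0.0853). Those 2 calls held in 4 and 6 of 12 leave-one-out fits. The no virus libraries gave 0.14 (adjusted p = 0.403) and 0.19 (adjusted p = 0.147) as the control for Dnmt3a and Kdm6b. The blocked fit also called it after Mbd5 shRNA (0.21, adjusted p = 0.032). Dync1i2, an intermediate chain, rose after Chd8 shRNA by 0.26 (SE 0.08, adjusted p = 0.0222) with overlap, and this was lost without nontargeting female replicate 3 (0.0704), Chd8 male replicate 3 (0.0725) or Chd8 female replicate 1 (0.127). The heavy chain Dync1h1 ranged from -0.36 (Med13l) to 0.19 (Setd5) with no adjusted p under 0.242, and the neuronal intermediate chain Dync1i1 from -0.10 to 0.31 (smallest adjusted p = 0.22).

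In dynein 2, the ciliary form, Dync2li1 was called higher in 3 knockdowns. This light intermediate chain was 15.6 to 17.5 CPM (median 17.2) in nontargeting libraries. It was 20.3 to 24.2 (median 23.3) after Chd8 shRNA, 20.3 to 26.7 (median 22.9) after Dnmt3a shRNA and 21.0 to 30.5 (median 24.1) after Med13l shRNA. None of the 3 sets overlapped the controls in either sex. The differences were 0.45 (SE 0.11, adjusted p = 0.00116), 0.45 (SE 0.11, adjusted p = 0.0131) and 0.54 (SE 0.11, adjusted p = 0.000111). The Dnmt3a call was lost without Dnmt3a male replicate 2 (0.0604) or Dnmt3a female replicate 1 (0.0775). Dync2i1, an intermediate chain, rose after Chd8 shRNA by 0.36 (SE 0.13, adjusted p = 0.0357) and held in 5 of 12 leave-one-out fits.

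Of 10 tested dynein light chains 4 were called after Med13l shRNA, 1 higher and 3 lower (24.1% of all genes were called), and 2 in the Setd5 libraries, 1 in each direction (5.3%). These small proteins link dynein to cargo and also bind other partners. Dynlt3 (chrX:9654267-9663003, minus strand, GRCm38) was 125 to 198 CPM (median 143) in nontargeting libraries and 43.8 to 84.4 (median 55.6) after Med13l shRNA. All 6 libraries lay below all controls. It fell by 1.36 (SE 0.19, adjusted p = 2.66e-07), or to 38.9% of control, and it held in all 12 leave-one-out fits. Dynlt2b rose from 13.5 to 25.02 CPM (median 17.6) to 21.0 to 56.5 (median 25.8), by 0.69 (SE 0.19, adjusted p = 0.00535), with overlap. This call was lost without Med13l female replicate 1 (0.48, adjusted p = 0.0705), the library with the steepest dependence of counts on length. Dynlrb1 fell by 0.44 (SE 0.17, adjusted p = 0.0463) and Dynll2 by 0.41 (SE 0.15, adjusted p = 0.0331), and these held in 3 and 4 of 12 fits.

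The paired light chains Dynll1 and Dynll2, close relatives that also serve myosin V and many other complexes, went opposite ways in the Setd5 libraries. Dynll2 was 360 to 516 CPM (median 444) in nontargeting libraries and 197 to 405 (median 237) with Setd5 shRNA. The highest of these, and the sole one inside the control range, was the library labelled Setd5 male replicate 1, whose target went against its label. It fell by 0.75 (SE 0.15, adjusted p = 0.000752), and by 0.90 (adjusted p = 1.76e-05) without both libraries that went against their labels. Dynll1 was 185 to 251 CPM (median 193) in controls and 191 to 385 (median 263) in the Setd5 libraries, with overlap in both sexes, and rose by 0.43 (SE 0.13, adjusted p = 0.0411). The Dynll1 call held in 3 of 12 leave-one-out fits and was 0.50 (adjusted p = 0.00939) without both libraries. Without Setd5 male replicate 1, 7 members were called in all, 2 higher and 5 lower. Without both libraries that went against their labels 7 were called as well, beside 7.43% of all genes.

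Dynactin, the complex that activates dynein 1, gave 5 of 6 subunits called after Med13l shRNA, 4 higher and 1 lower, and 3 of 6 after Chd8 shRNA, 2 higher and 1 lower, where 24.1% and 22.3% of all genes were called. Dctn4, a subunit of the pointed end of the complex, fell in both. It was 145 to 181 CPM (median 153) in nontargeting libraries, 96.3 to 140 (median 116) after Chd8 shRNA and 64.2 to 126 (median 92.1) after Med13l shRNA. Neither set overlapped the controls in either sex. The differences were -0.42 (SE 0.10, adjusted p = 0.000945) and -0.74 (SE 0.10, adjusted p = 7.26e-08). Dctn6, also of the pointed end, rose by 0.43 (SE 0.10, adjusted p = 0.000796) after Chd8 shRNA and by 0.34 (SE 0.10, adjusted p = 0.00901) after Med13l shRNA, the latter lost without Med13l female replicate 1 (0.25, adjusted p = 0.0746). Dctn2, the subunit also named dynamitin, was 289 to 317 CPM (median 305) in controls and 350 to 422 (median 376) after Med13l shRNA, without overlap. It rose by 0.32 (SE 0.07, adjusted p = 0.000303), and Dctn3 by 0.24 (SE 0.08, adjusted p = 0.0349), which held in 6 of 12 fits. Dctn1, the largest subunit, which touches the microtubule, ranged from -0.23 to 0.07 (smallest adjusted p = 0.294).

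Dctn5 changed in 3 knockdowns and in both directions. It was 73.3 to 88.0 CPM (median 77.3) in nontargeting libraries and 44.5 to 67.1 (median 45.5) after Kmt2c shRNA. All 6 libraries lay below all controls. It fell by 0.67 (SE 0.07, adjusted p = 1.87e-08), or to 63.0% of control, with -0.75 in males and -0.58 in females. It was the sole member called after Kmt2c shRNA, and the call held in all 12 leave-one-out fits. Dctn5 rose by 0.20 (SE 0.07, adjusted p = 0.0421) after Chd8 shRNA and by 0.24 (SE 0.07, adjusted p = 0.0135) after Med13l shRNA, both with overlap. The Chd8 call held in 6 of 12 fits, and the Med13l call was lost without Med13l male replicate 3 (0.19, adjusted p = 0.0758).

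The promoter of Dctn5 is printed because it was the member that fell after Kmt2c shRNA, Kmt2c being a methyltransferase of histone H3 that acts mainly at enhancers. It is the 250 bases before the RefSeq start (GRCm38.p6, chr7:122132791-122133040, plus strand). Capitals mark CCAAT and a match to the NRF1 motif, searched on both strands and overlapping no other match here.
Dctn5: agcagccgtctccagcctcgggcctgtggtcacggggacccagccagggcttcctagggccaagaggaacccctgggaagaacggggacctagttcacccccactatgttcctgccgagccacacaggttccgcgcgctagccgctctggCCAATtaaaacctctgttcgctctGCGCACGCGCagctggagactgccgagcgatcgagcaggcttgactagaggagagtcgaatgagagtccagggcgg
The NRF1 motif was found in 6 of the 52 members with a window (11.5%) and in 4.23% of all genes. No binding was measured in this series.

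Chd8 and Med13l shRNA were also compared directly, without any control library. Of the 69 members 26 were called, 21 higher and 5 lower in the Chd8 libraries, against 36.9% of all genes (18.1% higher and 18.8% lower). With the block 35 were called, 50.7% beside 51.5% of all genes. Thus the share called was close to the background in both fits, while 21 of the 26 called without the block were higher in the Chd8 libraries. The median difference over the members was 0.23, against 0.0045 over all genes. Per doubling of exon length, the differences from control had slopes of -0.0712 for Med13l and -0.0092 for Chd8. The part of transcript length in this comparison was not tested. Kif1b was lower in the Chd8 libraries by -1.52 (SE 0.17, adjusted p = 2.32e-10). Higher there were Kif3c by 0.79 (SE 0.11, adjusted p = 1.45e-07), Dynlt3 by 1.03 (SE 0.19, adjusted p = 1.63e-05) and Kif21b by 0.62 (SE 0.15, adjusted p = 0.000588). The kinesin-2 pair Kif3a and Kif3b was also higher, by 0.35 (adjusted p = 0.000439) and 0.43 (adjusted p = 0.0018). Dctn2 (-0.43, adjusted p = 1.16e-06), Kifc2 (-0.51, adjusted p = 7.86e-05), Kif7 (-0.53, adjusted p = 0.02) and Dynlt2b (-0.64, adjusted p = 0.00644) were lower. Kif7 was not called without Chd8 female replicate 2 (adjusted p = 0.0529), nor Dynlt2b without Med13l female replicate 1 (adjusted p = 0.0821).

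Of the 13 mitotic kinesins 5 were called in this direct comparison, all higher in the Chd8 libraries, beside 36.9% of all genes (18.1% higher). The class median was 0.60, with 12 of 13 positive. The 5 called were Kif14 (2.09, SE 0.53, adjusted p = 0.00137), Kif22 (0.90, SE 0.19, adjusted p = 0.000111), Kifc5b (0.84, SE 0.22, adjusted p = 0.00199), Kif20b (0.68, SE 0.28, adjusted p = 0.0479) and Kifc1 (0.60, SE 0.21, adjusted p = 0.0209). Kif20b held in 3 of 12 leave-one-out fits. Kifc1 was lost without Chd8 female replicate 3 (adjusted p = 0.0728), Med13l male replicate 2 (0.0629) or Med13l female replicate 1 (0.0597). Beside this, 6 of the 12 dividing-cell markers were higher in the Chd8 libraries (18.1% of all genes were) and none lower, with a median of 0.82. Their part was not tested. In dynein 2 the heavy chain Dync2h1 was higher by 0.49 (SE 0.13, adjusted p = 0.00155), and among light chains Dynlt1f by 1.07 (SE 0.27, adjusted p = 0.00126). Dynlt1f has near-identical copies (Dynlt1a, Dynlt1b and Dynlt1c), so its reads are uncertain.

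**Figure D5:**
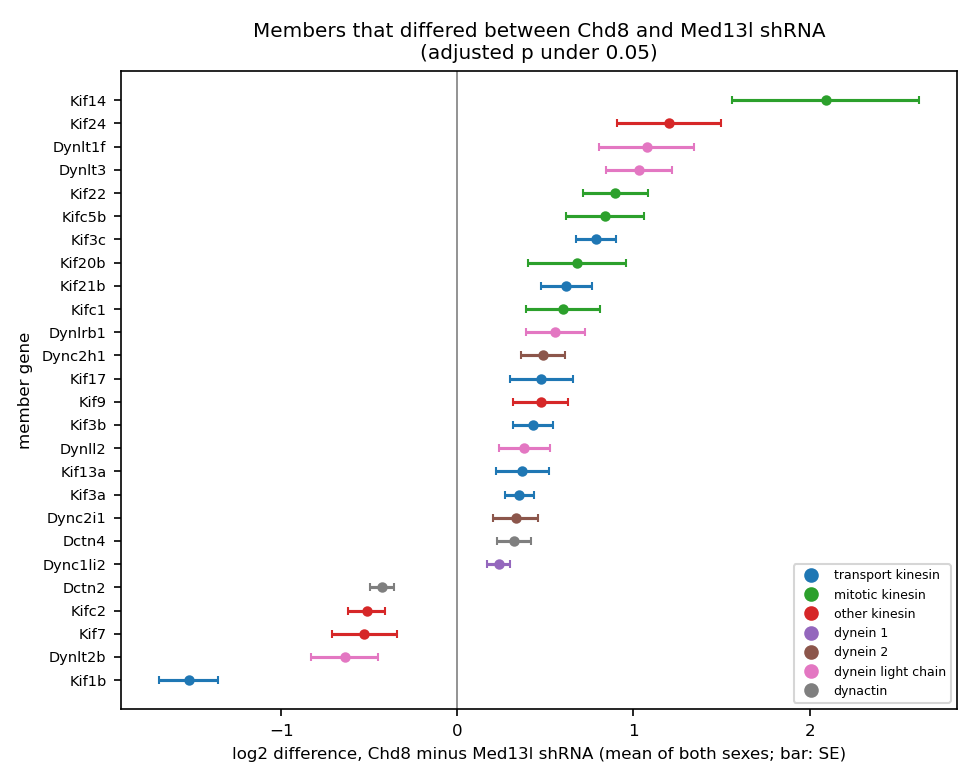
Log2 difference between Chd8 and Med13l shRNA libraries (mean of both sexes) for the 26 members called in this comparison, with bars for the SE and colours for class. Of the 26, 21 lie right of 0, all 5 mitotic kinesins among them, and Kif1b lies farthest left at -1.52.

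Sex, infection and the partner proteins were examined in the same way. No member was called by edgeR or DESeq2 between nontargeting and no virus libraries, where 0 of all genes were called and no member had an unadjusted p under 0.05. Between male and female nontargeting libraries no member was called by either tool and none had an unadjusted p under 0.05 (0.0434% of all genes were called, 0.031% higher and 0.0124% lower in males). In the 9 tests of a difference in knockdown effect between the sexes no member was called by edgeR or by DESeq2, beside 0.0186% of all genes for Setd5 and 0 for the other targets. Kifc5b had an unadjusted p under 0.05 for Setd5, with a male minus female effect of 1.39 (SE 0.46, adjusted p = 1), and for Dnmt3a, with 1.17 (SE 0.45, adjusted p = 1), and no other member did. For Kif1b after Chd8 shRNA the male and female effects were -1.72 and -1.63, and for Kif5a after Ash1l shRNA -0.85 and -0.81.

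Of a list of 32 motor partners, which are adaptors and regulators, all were tested. Chd8 shRNA gave 9 called, 4 higher and 5 lower (28.1%, against 22.3% of all genes), and Med13l shRNA 11, 4 higher and 7 lower (34.4%, against 24.1%). Rhot1 and Trak2, which tether kinesin to mitochondria, fell after Chd8 shRNA by 0.72 (SE 0.08, adjusted p = 1.44e-09) and 0.68 (SE 0.12, adjusted p = 3.29e-05). Trak1, of the same family, fell after Med13l shRNA by 0.79 (SE 0.18, adjusted p = 0.000707). Fez1, a kinesin-1 adaptor, fell there by 0.40 (SE 0.06, adjusted p = 3.92e-06). Ash1l shRNA gave 4 called, all lower (12.5%, against 6.16% of all genes), among them Spag9, a scaffold for kinesin-1 and dynein (-0.57, SE 0.09, adjusted p = 1.03e-05). The Setd5 libraries gave 4, all higher (12.5%, against 5.3%), with the dynein regulator Pafah1b1 among them (0.31, SE 0.08, adjusted p = 0.0167). Without both libraries that went against their labels these were 5, all higher, where 7.43% of all genes were called. Pafah1b1 then differed by 0.32 (adjusted p = 0.00352). Kdm6b libraries gave 2 higher, Pafah1b1 and Spag9, where 0.966% of all genes were called. Neither was called without both libraries (adjusted p = 0.303 and 0.0897), while Actr1b then was (0.32, adjusted p = 0.00212), beside 1.26% of all genes. Kmt2c shRNA gave 1 lower (Bicd2, a dynein adaptor, -0.41, adjusted p = 0.00376), where 0.694% of all genes were called. None was called by edgeR for Dnmt3a, Mbd5 or Tbr1 shRNA, where 5, 3 and 3 had an unadjusted p under 0.05.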

How the data were processed

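RNA-seq of 66 libraries in 22 groups of 3 was read as deposited counts of reads per gene. The authors used STAR, featureCounts and the mm10 build, per the submitters' processing notes; versions, annotation and strand setting are not given in the sources used here. Of 72 library columns, 6 match no sample and were not used. Of 48716 entries, 18483 without a symbol (0.690% to 1.41% of counts) were left out, and 149 repeated symbols were summed, leaving 30084 symbols. The control columns are headed Luc and were taken as the nontargeting libraries. No 2 libraries of a group agreed within sampling noise. Among counts of 1 to 20, 26.7% were odd, against 49.1% of counts of 1000 and over, and the cause was not tested. Small counts are therefore uncertain as numbers of reads. The labels do not say that replicates came from separate cultures or animals, so p-values measure only the spread between these samples, which may be technical.

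The counts were tested with edgeR 4.0.16 (R 4.3.3, limma 3.58.1): filterByExpr, TMM scaling, 1 fit over the 22 groups, a robust quasi-likelihood F test and Benjamini-Hochberg adjustment over 16145 genes, called at 0.05. SE is the log2 difference divided by the square root of F, and CPM uses TMM-scaled totals. Exon lengths came from GENCODE gene models (GRCm38) and promoters from RefSeq. Same-numbered libraries deviated together (every correlation over 0.1) for 6 of 9 targets; the labels do not say what a number shares. On simulated Chd8 data of 15969 genes, 56% of 1.5-fold and 86% of 2-fold changes were recovered, with 8 false among 150 calls. The changed genes, 100 of each size, were drawn from genes above a floor on mean reads. Same-numbered libraries were simulated as independent, so the recovery does not cover scarce members or libraries that vary together. Alternatives were RLE scaling, no filter, halved counts, a replicate block, no virus controls, DESeq2 1.42.0, a fit of the compared libraries alone and libraries left out.

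Members and lists were chosen with earlier results of these data known. Genes named are the 30 members with the smallest adjusted p among those called in any knockdown, those called in another comparison, and fixed landmarks (Kif1a, Kif5a, Kif5b, Kif5c, Kif3a, Kif21a, Kif2a, Kif11, Klc1, Dync1h1, Dync1i1, Dynll1 and Dctn1); others were named after their values were seen.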

Additional observations from a re-analysis of the deposited data

How the results depend on the processing

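No result reversed its sign under any alternative run. Of the 48 knockdown calls, 25 held without each library in turn. RLE scaling left 0 members called for Mbd5. With no filter on low counts 0 were called for Kdm6b, Mbd5 and Tbr1 and 2 for Setd5. With no virus libraries as control 0 were called for Kdm6b. DESeq2 called 2 for Mbd5. A fit of only the libraries compared called 3 for Ash1l and 0 for Dnmt3a, Kdm6b, Mbd5, Setd5 and Tbr1. Without both male libraries that went against their labels 1 was called for Kdm6b and 7 for Setd5. In that fit 1.26% and 7.43% of all genes were called. Without the 11 female replicate 1 libraries, an alternative chosen after seeing the data, 0 were called for Dnmt3a, Kdm6b and Mbd5 and 2 for Setd5. The cause was not tested.

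With the replicate block the counts were 8 for Ash1l, 6 for Dnmt3a, 4 for Kdm6b and 2 for Mbd5. They were 26 for Med13l, 15 for Setd5 and 7 for Tbr1. For Ash1l, Kdm6b and Med13l the numbers were not shown to pair the libraries. The shares of members for these targets were 11.6%, 5.8% and 37.7%, beside 17.2%, 7.87% and 41.5% of all genes. The block could not be used between the sexes, because it lies within sex.

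Leaving out 1 library at a time gave 4 to 5 members called for Ash1l, 13 to 19 for Chd8, 0 to 3 for Dnmt3a (0 without Dnmt3a female replicate 1), 0 to 3 for Kdm6b, 1 for Kmt2c, 0 to 1 for Mbd5, 9 to 18 for Med13l, 2 to 7 for Setd5 (7 without Setd5 male replicate 1 or female replicate 2), 0 to 2 for Tbr1, 19 to 29 for Chd8 against Med13l, and 0 for infection, sex and sex differences. Few reads limit members such as Kif18b, which had at most 12 per library.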

Other observations

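Genes of the ciliary dyneins and their assembly factors, and the mitotic kinesin Cenpe, lie outside the symbol rule and were looked at after values of these data were seen; 31 of 35 such symbols were tested. After Med13l shRNA 7 were lower, 5 of them heavy chains of ciliary dynein, including Dnah6 (-1.17, adjusted p = 0.0253) and Dnah5 (-0.72, adjusted p = 0.0236), and Cenpe (-1.06, adjusted p = 9.09e-06), by edgeR with Benjamini-Hochberg adjustment, and 1 was higher, where 12.3% of all genes were lower and 11.8% higher. After Chd8 shRNA 4 were higher (9.85% of all genes were), among them the assembly factor Dnaaf8 (1.18, SE 0.14, adjusted p = 7.75e-09), and 3 lower (12.5% of all genes), among them Dnal1 (-0.54, adjusted p = 4.06e-05). Dnal1, a light chain of ciliary dynein, fell in the Setd5 libraries from 86.5 to 48.0 mean CPM (-0.85, SE 0.10, adjusted p = 1.94e-07), and by 0.98 (adjusted p = 1.28e-10) without both male libraries that went against their labels. The 5 ependymal markers, of ciliated cells, include the ciliary dynein heavy chains Dnah5 and Dnah9, so their sum is not separate from these genes. The markers summed to 29.7 to 38.1 CPM in nontargeting libraries, 30.9 to 55.3 after Chd8 shRNA and 23.3 to 30.9 after Med13l shRNA. Their part was not tested.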
